A study of Mus musculus with 4 samples.

Results

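The paternally methylated imprinted loci of the mouse were examined at H19, Igf2, Dlk1, Meg3 and Rasgrf1, in a tiling-array measurement of DNA methylation in fetal liver. Probes were taken by the start of their position on the mm9 build in 4 windows: H19 with its control region on chromosome 7 from 149755000 to 149785000, Igf2 on chromosome 7 from 149830000 to 149865000, the stretch from Dlk1 to Meg3 on chromosome 12 from 110680000 to 110820000, and Rasgrf1 on chromosome 9 from 89760000 to 89830000. Of the 415749 usable probes of the array, 97 started in these windows, 52 in that of Igf2, 24 in that of Dlk1 to Meg3 and 21 in that of Rasgrf1. The H19 window held 0 probes. The files list each of the 420288 spots of the array grid, and none of the 97 member probes carried an outlier flag. The member probes formed 13 regions, runs of at least 3 probes no longer than 2000 bp, of 56653 regions on the array.

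At imprinted loci the maternal and the paternal copy of a gene are marked differently by DNA methylation laid down in the germ line, and a gene is then expressed from the copy of a single parent. At H19 and Igf2 a control region upstream of H19 is methylated on the paternal copy, where the insulator protein CTCF does not bind, and Igf2, a growth factor of the fetus that is abundant in fetal liver, is expressed from that copy while the long noncoding RNA H19 is expressed from the maternal one. At Dlk1 and Meg3 an intergenic region between the genes is methylated on the paternal copy, which expresses Dlk1, a membrane protein of the Notch ligand family, while the long noncoding RNA Meg3 is expressed from the maternal copy. Rasgrf1, which activates Ras proteins, has a control region upstream of the gene that is also methylated on the paternal copy.

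The samples were DNA pools from livers of C57BL/6J fetuses collected by caesarean section on gestation day 18. Dams of the food restricted group were given 50% of the daily chow intake of the control group on gestation days 10 to 17, and control dams were fed freely. Each group was 1 pool, labelled N = 6, and 2 arrays were made of each pool with exchanged dyes: the precipitated DNA of both pools carried Cy5 on slide 1 and Cy3 on slide 2. Arrays of the same pool are technical repeats, so the difference between the pools has no replicate check. The values of all 4 arrays are given in place of a test. Position on the slide was the same for a pool on both slides and cannot be told apart from the pool.

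The assay compares DNA precipitated by its methylated cytosines with total DNA of the same pool. M is the log2 ratio of the precipitated to the total signal, centred on the median of all probes of the array, so that 0 is the level of the middle probe. M rises with both the methylation and the number of CpG in a fragment, and a low M is therefore no measure of an unmethylated site. The difference D is taken within a slide, food restricted minus control. A region was called where D was at least 0.5 in size, a 1.41-fold ratio, with the same sign on both slides.

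The precipitated signal was well above background at 72.2% and 72.0% of all probes on the control arrays and at 79.9% and 80.6% on the food restricted arrays. Across all regions M correlated between any pair of arrays at r = 0.953 to 0.972, as a description over 56653 regions that share their pools. It was 0.965 between the control repeats and 0.972 between the food restricted repeats. Between the pools it was 0.969 on slide 1 and 0.969 on slide 2, so the control repeats were no more alike than the pools on a slide. In the deposited value table, the columns of the food restricted array of slide 1 and of the control array of slide 2 hold each other's scanner values, equal within 0.001 at 100% of probes. The scanner files were used because the sign of their ratios fits the dyes that the titles name. A difference between the pools rests on both of these arrays, and the mean D with their exchange is given where it turns the sign.

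Because the assay reads CpG, the promoters of the member genes are shown for their CpG content, which ranged widely between them. RefSeq (build GRCm38.p6) gave 8 promoters for Igf2, Dlk1, Meg3 and Rasgrf1, of which 4 are printed, from the CpG-poorest and CpG-richest of Igf2 to those of the other genes with probes. Each is the 250 bases before the transcription start, 5′ to 3′ on the strand of the gene, with each CpG in capitals. The promoters of Igf2 are numbered in the direction of transcription on the minus strand, and Dlk1 and Rasgrf1 lie on the plus strand.
Igf2 promoter 1: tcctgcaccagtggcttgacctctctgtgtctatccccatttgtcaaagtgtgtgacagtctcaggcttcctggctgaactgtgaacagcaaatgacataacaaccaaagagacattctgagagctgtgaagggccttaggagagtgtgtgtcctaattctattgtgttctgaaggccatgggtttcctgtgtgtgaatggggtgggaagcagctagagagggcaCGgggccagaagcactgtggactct
Igf2 promoter 3: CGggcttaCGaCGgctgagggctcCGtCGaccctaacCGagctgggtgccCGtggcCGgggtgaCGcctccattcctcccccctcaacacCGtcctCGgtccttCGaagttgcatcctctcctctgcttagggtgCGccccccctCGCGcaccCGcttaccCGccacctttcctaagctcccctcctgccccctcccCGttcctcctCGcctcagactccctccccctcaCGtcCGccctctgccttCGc
Dlk1 promoter 1: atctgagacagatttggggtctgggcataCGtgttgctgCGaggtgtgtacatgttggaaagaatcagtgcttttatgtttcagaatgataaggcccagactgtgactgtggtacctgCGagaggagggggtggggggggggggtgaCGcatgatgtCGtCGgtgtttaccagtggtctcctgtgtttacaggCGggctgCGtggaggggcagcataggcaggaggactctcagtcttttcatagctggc
Rasgrf1 promoter 1: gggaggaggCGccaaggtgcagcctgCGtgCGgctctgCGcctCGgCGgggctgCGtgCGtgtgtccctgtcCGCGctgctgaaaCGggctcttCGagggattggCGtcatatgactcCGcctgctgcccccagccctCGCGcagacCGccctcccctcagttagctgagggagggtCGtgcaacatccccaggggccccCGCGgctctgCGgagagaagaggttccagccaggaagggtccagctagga
The sequence CG, which reads the same on both strands, occurred 1 time in Igf2 promoter 1 and 22 times in Igf2 promoter 3, with 10 and 6 in promoters 2 and 4. It occurred 21 times before Rasgrf1, 8 times before Dlk1, and 10 and 0 times before the starts of Meg3. Over all 32851 promoters the median was 6, and 14.8% held at least 22 and 16.3% at least 21. These promoters are on another build than the probes and were not placed on them, so whether a probe lies in a promoter, an exon or an intron is not given here.

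The windows were covered unevenly. Around the H19 window no probe lay over 120.8 kb, from 35.0 kb below it to 55.8 kb above it, so methylation of H19 and of its control region was not analysed here. In the Dlk1 to Meg3 window the 24 probes formed a single block of 4.82 kb that began 7.95 kb into the window, and the following 127.2 kb up to its end held none. Dlk1 comes before Meg3 along chromosome 12 in RefSeq, so the block lies on the Dlk1 side, and the Meg3 side was not analysed here. The Rasgrf1 probes formed 1 block of 4.22 kb that began 41.6 kb into the window, and the 41.6 kb before it and the 24.2 kb after it held none. No probe was placed on the paternally methylated control region of Rasgrf1 or on that between Dlk1 and Meg3. The levels of these blocks are therefore not a reading of those control regions. In the Igf2 window 47 probes formed a block of 9.66 kb, and the other 5, after a gap of 14.0 kb, opened a block of 27 probes that ran on past the end of the window. The next protein-coding gene after Igf2 on that side is Ins2, in RefSeq order.

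Along the windows, most of the covered sequence was weakly enriched. M was below 0 on all 4 arrays at 68 of the 97 probes (70.1%), against 41.5% of all probes, and above 1 on all 4 arrays at 5 (5.15%), against 27.2%. All 5 lay in the Igf2 window. Of the 13 regions 6 were among the lowest 10% of all regions by mean M and 0 among the highest 10%, and their median M was -1.30 against -0.10 over all regions. The lowest and the highest of the 13 had mean M of -1.73, in the Rasgrf1 window, and 0.95, in the Igf2 window.

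**Figure D1:**
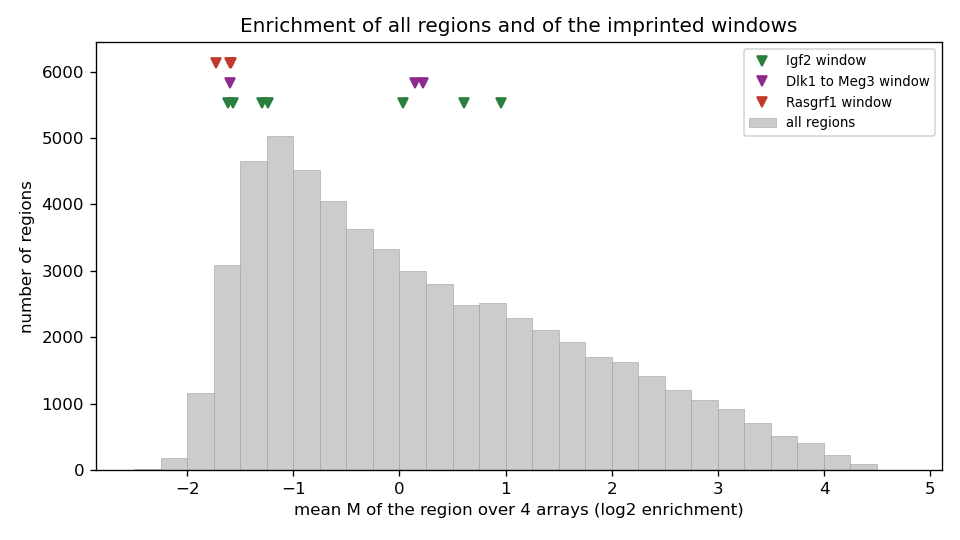
Histogram of mean M over the 4 arrays for all 56653 regions (grey bars; vertical axis, number of regions), with triangles for the 13 regions of the imprinted windows. Their height is set apart by window only. The 3 regions of Rasgrf1, regions 4 and 5 of Igf2 and the first of Dlk1 to Meg3 sit at the low end, between -1.73 and -1.57, and the region of Igf2 at 0.95 is the highest.

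Igf2 held the only enriched stretch, at the end of its block that faces H19. The first 2 regions, Igf2 region 1 (chr7:149840797-149842169, 7 probes) and Igf2 region 2 (chr7:149842321-149843726, 8 probes), had M of 1.00 and 0.97 and of 0.90 and 0.53 in the control pool on slides 1 and 2. In the food restricted pool M was 0.81 and 1.04 in Igf2 region 1 and 0.50 and 0.49 in Igf2 region 2. These levels stand at percentiles 70.6 and 64.4 of all regions. All 15 probes of both regions were well above background on every array. The levels of both regions depended on the processing. The mean M of Igf2 region 1 was 0.18 with normexp background correction, 1.99 with the densest value of the array as centre and -0.58 with loess within the array. That of Igf2 region 2, which holds the enriched stretch, was -0.14 with normexp, 1.64 with the densest value and -0.54 with loess. The sign thus turned with loess in both and with normexp in Igf2 region 2.

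Within these regions the enrichment had a pair of maxima. At the first, the probe at chr7:149841690-149841734, M was 2.23 and 1.83 in the control pool and 1.89 and 1.86 in the food restricted pool. It fell to a mean of -0.21 at the probe 1.52 kb from the start of the block, and reached its highest value at chr7:149842864-149842909, with 2.39 and 2.65 in the control pool and 2.38 and 2.60 in the food restricted pool. That probe and its neighbours on either side made the enriched stretch, 3 probes over 315 bp with M between 1.65 and 2.65 on all arrays. Such stretches, of at least 3 probes with M above 1 on all 4 arrays, held 22.2% of all probes and 3 of the 97 member probes. The pools overlapped at the highest probe, where D was -0.01 and -0.05.

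Beyond 3 kb from its start, the Igf2 block was weakly enriched to its far end. From Igf2 region 2 to Igf2 region 3 M fell by 1.84 in the mean, with steps of -2.14 and -2.01 in the control pool and -1.58 and -1.63 in the food restricted pool. Of the 33217 steps between neighbouring regions on the array at most 1000 bp apart, 73.6% were smaller in size. Igf2 regions 3 to 6 (chr7:149843881-149850460, 32 probes) had mean M of -1.24, -1.57, -1.62 and -1.30, and no probe in them had a mean M above 0. The precipitated signal was well above background on all arrays at 18 of these 32 probes and on none at 5. The lowest probe, chr7:149846360-149846419, had M of -1.90 and -2.79 in the control pool and -2.10 and -1.96 in the food restricted pool and was not well above background on any array.

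Igf2 region 7 (chr7:149864431-149865938) starts in the window with 5 of its 11 probes. Its M was -0.00088 and 0.11 in the control pool and 0.06 and -0.06 in the food restricted pool, at percentile 52.9 of all regions, and its mean M was -0.63 with normexp and -1.24 with loess. The probes in the window ranged from -1.78 to 0.75 in mean M, and all of them were well above background on every array.

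The Dlk1 block changed level at a border common to both pools. Its first 12 probes, Dlk1 to Meg3 region 1 (chr12:110687951-110689784), had mean M between -2.70 and -0.50, and M was below 0 on every array at each of them. The 12 probes after it, Dlk1 to Meg3 region 2 (chr12:110690229-110691383, 7 probes) and Dlk1 to Meg3 region 3 (chr12:110691897-110692767, 5 probes), had mean M between -0.80 and 0.79, above 0 at 9. From region 1 to region 2 M rose by 2.32 and 2.31 in the control pool and by 1.38 and 1.27 in the food restricted pool on slides 1 and 2. In the reported setting the step was thus smaller in the food restricted pool on both slides, and the gap between these regions was 445 bp. In the mean it was 1.82, and 73.2% of the 33217 steps on the array were smaller in size. With normexp, the mean M of regions 1, 2 and 3 was -1.08, -0.42 and -0.32. With loess it was -1.28, -0.51 and -0.61, so that in both settings the mean step was smaller and regions 2 and 3 also lay below 0. With normexp D was 0.06 and 0.03 in region 1 and 0.15 and 0.10 in region 2. The step was then larger in the food restricted pool on both slides. With loess D was 0.31 and 0.20 in region 1 and -0.32 and 0.02 in region 2, and the step stayed smaller in that pool.

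The highest probe of the Dlk1 to Meg3 window, chr12:110690717-110690776, had M of 1.06 and 0.80 in the control pool and 0.70 and 0.59 in the food restricted pool. The lowest, chr12:110689265-110689320, had -3.06 and -3.47 in the control pool and -2.37 and -1.89 in the food restricted pool, and was well above background only on the food restricted array of slide 2. These probes start 2.77 and 1.31 kb from the first probe, on either side of the border.

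The Rasgrf1 block, which was not placed on the control region of the gene, was weakly enriched throughout. All 21 probes had M below 0 on every array, as a single stretch of 4.22 kb (chr9:89801580-89805800). Such stretches, of at least 3 probes with M below 0 on all 4 arrays, held 31.4% of all probes and 63 of the 97 member probes. The regions Rasgrf1 region 1 (chr9:89801580-89803171, 9 probes), Rasgrf1 region 2 (chr9:89803656-89804480, 5 probes) and Rasgrf1 region 3 (chr9:89804796-89805800, 7 probes) had mean M of -1.59, -1.73 and -1.60, at percentiles 5.54, 2.66 and 5.22. The highest probe reached a mean of -1.04 and the lowest, chr9:89802161-89802213, a mean of -2.90. The precipitated signal was well above background at between 11 and 17 of the 21 probes on an array, so the order of the lowest values is not resolved. Across these 21 probes M correlated between repeats at r = 0.40 for the control arrays and 0.42 for the food restricted arrays, as a description. It was 0.88 and 0.94 over the 52 probes of Igf2 and 0.95 and 0.88 over the 24 of Dlk1 to Meg3. The mean M of probes spanned -2.90 to -1.04 at Rasgrf1, -2.19 to 2.51 at Igf2 and -2.70 to 0.79 at Dlk1 to Meg3. Because r depends on this span, these values do not compare how well the windows repeat.

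**Figure D2:**
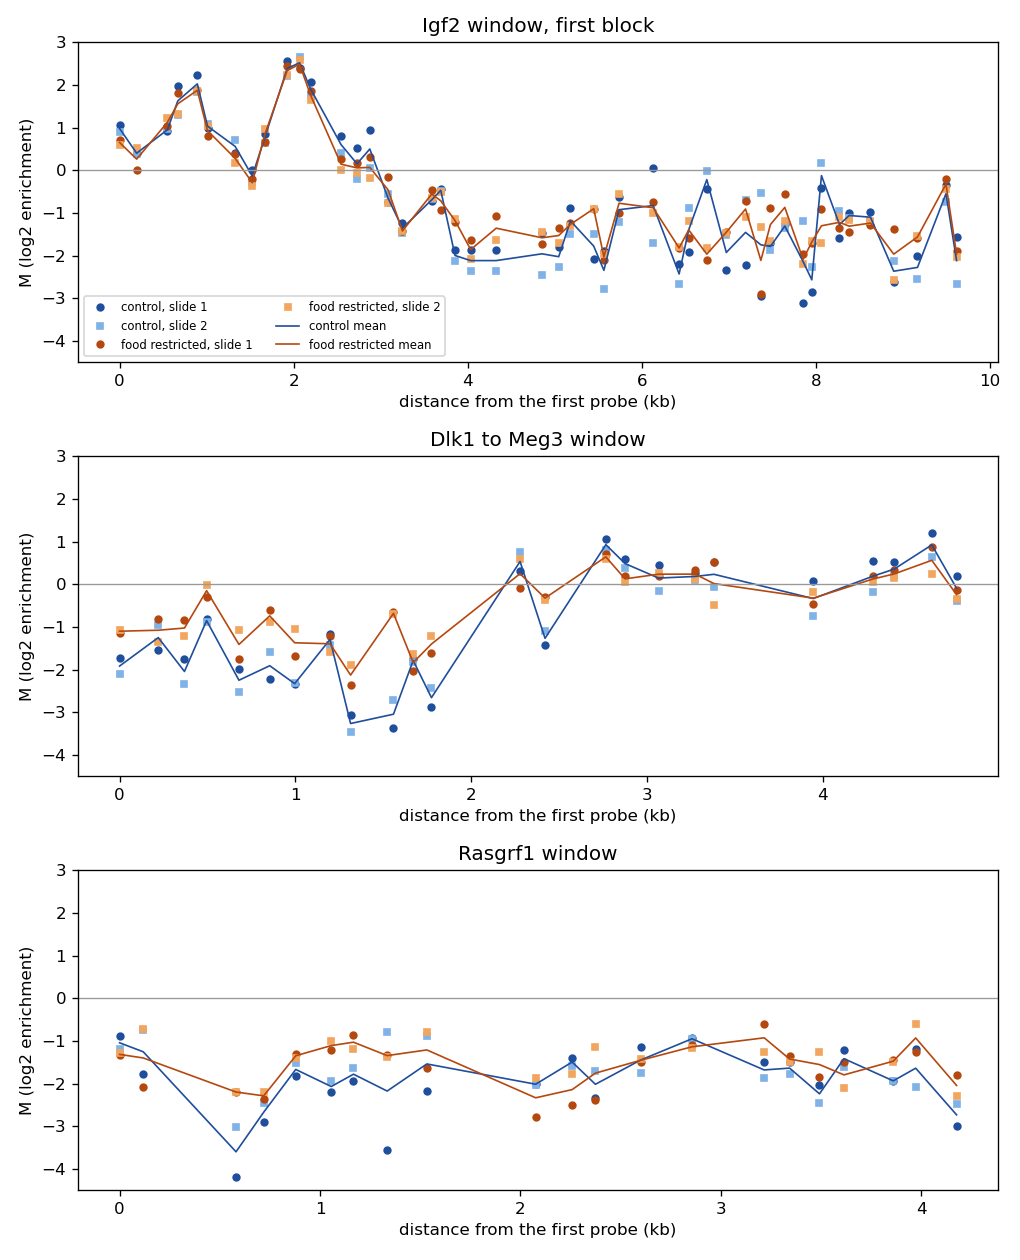
M of each probe on the 4 arrays (points; blue, control; orange, food restricted; circles, slide 1; squares, slide 2) against the distance in kb from the first probe of the block, with lines through the mean of each pool; the later block of the Igf2 window is not drawn. Igf2 has its maximum at 2.07 kb and lies below 0 in the mean from 3.08 to 9.61 kb, Dlk1 to Meg3 steps up between 1.77 and 2.28 kb, and all points of Rasgrf1 lie below 0.

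The comparison of the pools asked whether food restriction of the dam went with another methylation level at these loci in the fetal liver. Of the 13 regions 1 was called higher in the food restricted pool and 0 lower, where 4.55% of all regions were called higher and 0.643% lower. No region had D past this size with opposite signs, as 0.717% of all regions had. The count is too small to set these loci apart from the array. D had the same sign on both slides in 7 of the 13 regions, positive in 5 and negative in 2, and differed in sign in 6 (46.2%, against 37.2% of all regions). Both food restricted arrays lay above both control arrays in 5 regions and below them in 2, where 28.3% and 13.5% of all regions did. Among the 5665 regions of lowest mean M, they lay above in 2977 and below in 171. Of the 5 regions above, all but Igf2 region 3 were among these 5665, so pools that do not overlap were common at their level. The median of the mean D was -0.05 over the 13 regions and 0.06 over all. With the pools as the value table names them, the sign of the mean D turned in 7 of the 13 regions.

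**Figure D3:**
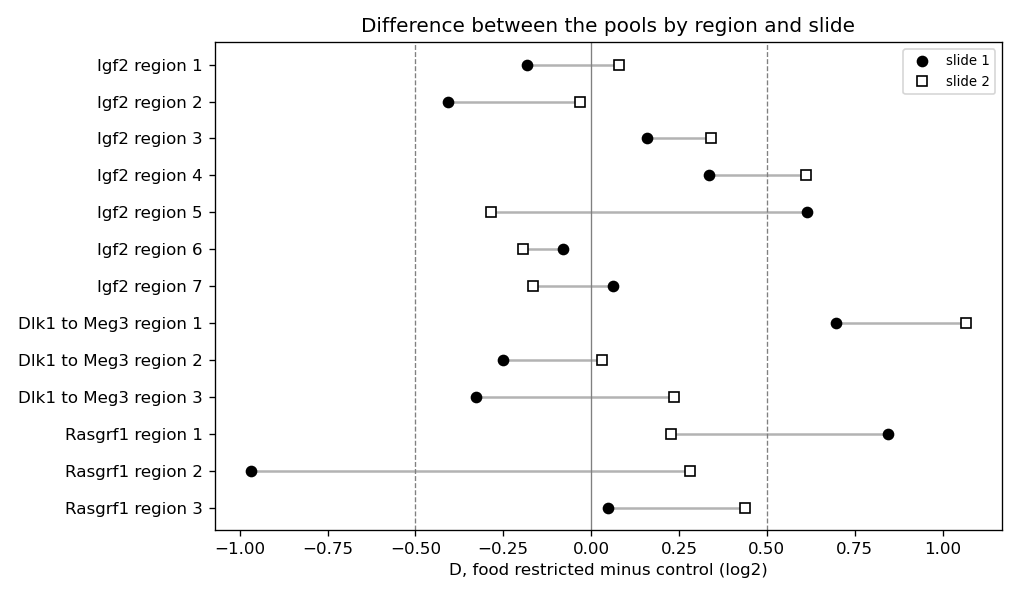
D of the 13 regions on slide 1 (filled circles) and slide 2 (open squares), in log2, with dashed lines at 0.5 in size, the size of a call. Dlk1 to Meg3 region 1 lies beyond 0.5 on both slides, at 0.70 and 1.07, and 6 regions have opposite signs on the slides.

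The region called higher was Dlk1 to Meg3 region 1, the weakly enriched part of the Dlk1 block. M was -1.87 and -2.21 on the control arrays and -1.17 and -1.14 on the food restricted arrays. The pools did not overlap, and the repeats differed by 0.34 in the control pool and by 0.03 in the food restricted pool. Of the 5665 regions of lowest mean M, to which this region belongs, 2977 also had both food restricted arrays above both control arrays. D was 0.70 on slide 1 and 1.07 on slide 2, a mean ratio 1.84-fold higher. D was above 0 on both slides at 9 of the 12 probes and below 0 on both at 1. The largest was at chr12:110689509-110689555, with M of -3.38 and -2.72 in the control pool, where it was not well above background, and -0.66 and -0.71 in the food restricted pool. The probe below 0 on both was chr12:110689148-110689192, with D of -0.04 and -0.16.

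The precipitated DNA differed more between the pools than the reference DNA. The median of each channel was taken on its own, so the channel differences do not add up to D. Centred on the array median, the precipitated signal of Dlk1 to Meg3 region 1 was -1.33 and -1.29 in the control pool and -0.48 and -0.43 in the food restricted pool, a difference of 0.85 and 0.86. The reference signal differed by 0.24 and 0.26. Over all regions the median differences were -0.14 and -0.13 for the precipitated and 0.07 and 0.08 for the reference signal.

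**Figure D4:**
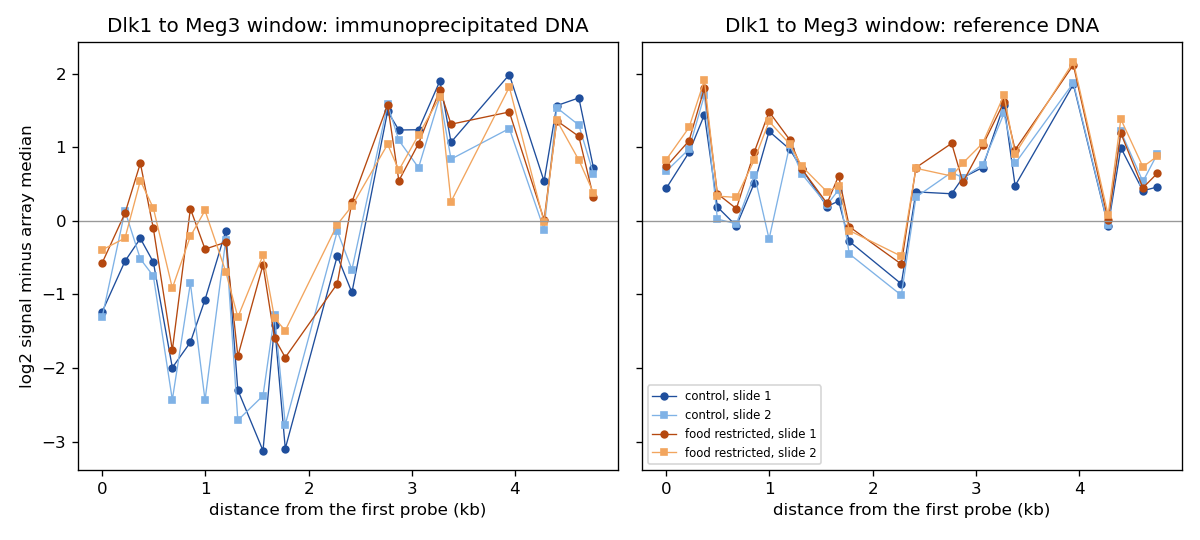
Precipitated (left) and reference (right) signal at the 24 probes of the Dlk1 to Meg3 window, as log2 minus the array median, against the distance in kb from the first probe; blue is the control pool and orange the food restricted pool, circles slide 1 and squares slide 2. In the first 12 probes the precipitated signal of the food restricted pool lies mostly above that of the control pool, by 0.85 and 0.86 in the region medians, while the reference signals differ by 0.24 and 0.26.

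Signal near background went with this call. The precipitated signal was well above background at 6 and 7 of the 12 probes in the control pool and at 10 and 12 in the food restricted pool. At the 5 probes well above background on all 4 arrays, M was -1.54 and -1.42 in the control pool and -0.84 and -1.21 in the food restricted pool, so D was 0.70 and 0.21 and the region was no longer called. Regions of this level were called more often: of the 5665 regions in the lowest 10% by mean M, 11.4% were called higher, 0.141% lower and 1.08% with opposite signs, and 2.93% had a larger mean D than this region, against 1.15% of all regions. After subtraction of a running median that follows D along the level M, D was 0.39 and 0.74, below the size of a call on slide 1. In that setting 0 of the 13 regions were called, against 1.09% of all regions higher and 1.01% lower. Normexp background correction left D at 0.06 and 0.03 and loess within the array at 0.31 and 0.20. With the pools as the value table names them, which puts both control arrays on slide 1 and both food restricted arrays on slide 2, D was 0.73 and -1.03 between the pairs of arrays, and its mean was -0.15. The part of dim signal in the difference was not tested beyond these values.

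**Figure D5:**
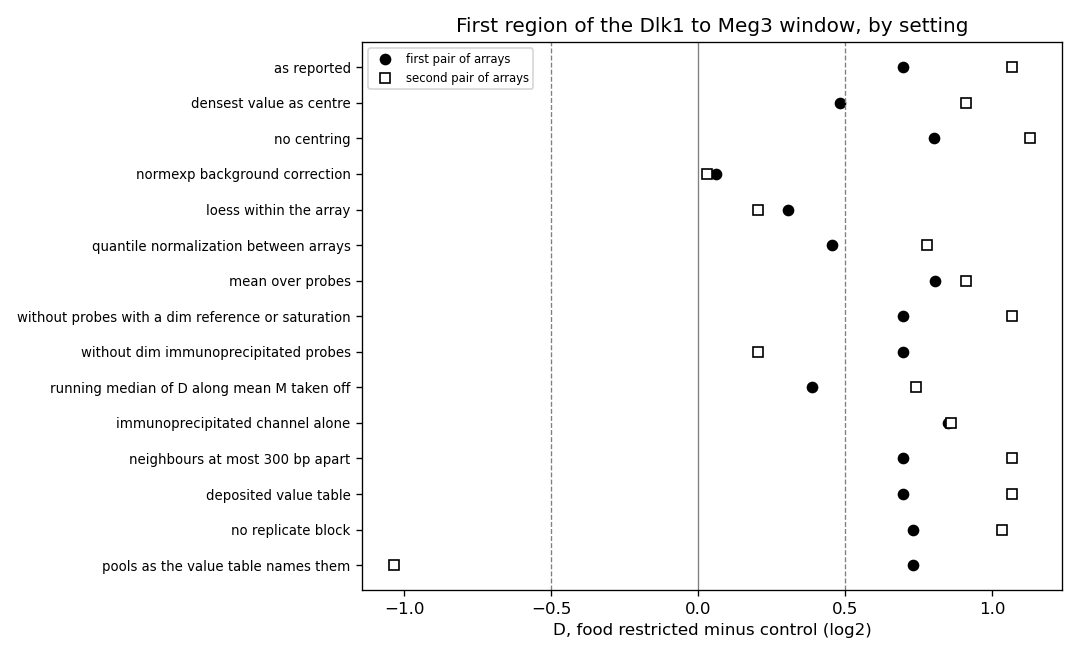
D of Dlk1 to Meg3 region 1 (horizontal axis, log2) for both pairs of arrays under the reported setting and the alternatives (rows). Filled circles are the first pair and open squares the second, which are slides 1 and 2 except in the last 2 rows, where a pair spans the slides; dashed lines mark 0.5 in size. Both pairs lie above 0.5 in 7 of the 14 alternatives shown. Among these 7, the settings without a dim reference, at 300 bp and with the deposited value table keep the reported probes and values. The setting with no replicate block keeps the reported mean. Both pairs lie near 0 with normexp, at 0.06 and 0.03, and on opposite sides of 0 with the pools exchanged, at 0.73 and -1.03.

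The rest of the Dlk1 block was not called. In Dlk1 to Meg3 region 2 M was 0.45 and 0.10 in the control pool and 0.20 and 0.13 in the food restricted pool, with D of -0.25 and 0.03. In Dlk1 to Meg3 region 3 M was 0.51 and -0.18 in the control pool and 0.18 and 0.06 in the food restricted pool, with D of -0.33 and 0.24. The pools overlapped in both regions, and the control repeats differed by 0.35 and 0.69.

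At Igf2 no region was called. In the enriched part D was -0.18 and 0.08 in Igf2 region 1, where the pools overlapped. It was -0.41 and -0.03 in Igf2 region 2, where both food restricted arrays lay below both control arrays. The mean D of Igf2 region 2, -0.22, was below 0 in 14 of its 16 alternatives. It was 0.0038 with normexp and 0.20 with loess, where D was 0.31 and 0.10 on the slides. Of the 15 probes of Igf2 regions 1 and 2, 8 had D below 0 on both slides and 1 above, with values from -0.62 to 0.33. In the weakly enriched part the largest mean D was in Igf2 region 4 (chr7:149845649-149847274). M there was -1.63 and -1.98 in the control pool and -1.30 and -1.37 in the food restricted pool, with D of 0.33 and 0.61, so that the pools did not overlap but slide 1 was below the size of a call. Its mean D was 0.47, against 0.13 with normexp, 0.07 with loess and -0.22 with the pools exchanged. Igf2 region 3 had D of 0.16 and 0.34 and Igf2 region 6 of -0.08 and -0.19. With neighbours joined at most 300 bp apart, Igf2 region 3 held 5 probes in place of 7. Its D was then 0.78 and 0.99, past the size of a call, where 5.38% of all regions were called higher. With the pools exchanged the mean D of Igf2 regions 1, 3 and 6 also turned, from -0.05 to 0.10, from 0.25 to -0.15 and from -0.14 to 0.049. Igf2 region 5, whose control repeats differed by 1.03, had D of 0.62 and -0.28. At its 9 probes the precipitated signal was well above background at 1 and 3 in the control pool and at 5 and 4 in the food restricted pool.

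At Rasgrf1 no region was called, and the slides differed widely. In Rasgrf1 region 1 M was -2.19 and -1.52 in the control pool and -1.34 and -1.30 in the food restricted pool, with D of 0.85 on slide 1 and 0.23 on slide 2. The pools did not overlap, but the control repeats differed by 0.66, and 6 of the 9 probes were dim on both control arrays. In Rasgrf1 region 2 M was -1.41 and -1.71 in the control pool and -2.38 and -1.42 in the food restricted pool, with D of -0.97 and 0.28. The repeats of the food restricted pool differed there by 0.96. In Rasgrf1 region 3 M was -1.51 and -1.93 in the control pool and -1.46 and -1.49 in the food restricted pool, with D of 0.05 and 0.44. With the pools exchanged the mean D turned from -0.34 to 0.33 in Rasgrf1 region 2 and from 0.24 to -0.23 in Rasgrf1 region 3. Over all regions the median difference between repeats was 0.23 for the control arrays and 0.20 for the food restricted arrays.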

How the data were processed

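MeDIP-chip was read from the scanner files of 4 arrays. Per the labels, DNA was extracted with a commercial kit and labelled with Cy3 or Cy5. Antibody and fragmentation: not given in the sources used here. Per the submitters' processing notes, the scanner software was Agilent Feature Extraction 10.5.1.1. The file headers name build mm9. The deposited intensity of each channel was background-subtracted and scaled within the array by a linear dye factor, per the file headers. The deposited value table holds log2 of red over green, not centred. Its scale and direction were found from the scanner files.

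From 420288 spots, 4474 control spots and 65 probes with an outlier flag were left out. The sign of M was set from the titles' dyes and each array was centred on its median. Probes were joined over the whole array where starts lay at most 500 bp apart, a chain over 2000 bp was split into equal lengths, and the median over at least 3 probes was taken. The text gives the highest, lowest, called and most different region of each window in full and the others to account for every member; the probes named are the highest and lowest of a window, those in or bordering an enriched stretch, and, chosen after their values were seen, the first maximum of Igf2, the probes of largest and smallest difference in the called region and those under other observations. limma 3.58.1 in R 4.3.3 gave normexp (offset 50) and loess; the rest used Python 3.11.15 with pandas 2.3.3. The number of arrays limits the precision. Region joining and calling were tested on simulated data with equal noise at all probes and no change of D along M. That test therefore does not cover dim probes or regions of low M as they are here. The members, windows and rules were chosen with earlier results of these data known.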

Additional observations from a re-analysis of the deposited data

How the results depend on the processing

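Of 20 alternatives, 1, the exchange of the pools as in the value table, was chosen after seeing the data. The 1 region called higher became 0 with the densest value as centre, normexp, loess, quantile normalization, without dim immunoprecipitated probes, with the running median taken off, with the pools exchanged and with a size of 0.7, and 2 with neighbours at most 300 bp apart and with a size of 0.3. Over all regions the share called higher was 1.55% with the densest value, 2.72% with normexp, 8.53% with loess, 1.18% with quantile normalization, 3.90% without dim immunoprecipitated probes, 1.09% with the running median, 2.20% with the pools exchanged, 1.46% with a size of 0.7, 5.38% at 300 bp and 12.2% with a size of 0.3. With a single slide (without replicate 1 or 2), 2 or 3 regions were past the size higher and 0 or 1 lower, where 13.8% and 12.4% of all regions were past it higher and 3.75% and 4.49% lower; leaving out either slide leaves 1 array a pool. Taking D across the slides, with no replicate block, kept the count at 1 higher and 0 lower. The mean D of Dlk1 to Meg3 region 1 turned to -0.15 with the pools exchanged. It was above 0 in 15 of its 16 alternatives, between 0.05 and 1.07, but some of these could not move it. Leaving out probes with a dim reference and joining at 300 bp kept the same 12 probes. Taking D across the slides keeps the mean, and the deposited value table holds the same scanner values. In each of these settings the mean D stayed at 0.88.

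The median D of the Igf2 window, -0.05, moved to -0.24 with the densest value, 0.033 without centring, 0.021 with normexp, 0.041 with loess and 0.042 in the immunoprecipitated channel alone, and lay between -0.033 and 0.062 on single slides. That of Rasgrf1, 0.24, moved to 0.057 with the densest value, 0.022 with normexp, -0.049 with loess, -0.030 with quantile normalization, 0.45 with means over probes and -0.077 with the running median, and lay between 0.047 and 0.28 on single slides. That of Dlk1 to Meg3, -0.05, was 0.24 on slide 2 and -0.25 on slide 1 alone and -0.23 with the densest value. With M above 0.5 in place of 1, Igf2 had 2 enriched stretches. Over all regions the median D was -0.12 with the densest value and 0.15 without centring. Signal over background limits the low regions: 10 of the 13 had at least 3 probes well above background on all arrays. The cause of these changes was not tested.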

Other observations

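A probe of Dlk1 to Meg3 region 2, chr12:110690371-110690420, went apart from its region. Its M was -1.43 and -1.11 in the control pool and -0.29 and -0.36 in the food restricted pool, with D of 1.14 and 0.75, and it was well above background on all arrays. At the other 6 probes of the region D lay between -0.43 and 0.43 on either slide. It is the second probe after the border at which the block changes level.

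At Igf2 the probe chr7:149847542-149847601 had M of -0.43 and -0.01 in the control pool and -2.11 and -1.83 in the food restricted pool, with D of -1.68 and -1.82. On none of the arrays was its precipitated signal well above background, and no fold is given for it.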
